A study of Mus musculus with 24 samples.

Results

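The genes examined here serve protein folding, secretion and quality control in the endoplasmic reticulum (ER), together with regulators of the unfolded protein response. They are 46 genes of 37074 gene names on the array, chosen by name and function with earlier results of these data known. Of the 56605 non-control probes, 84 carried those names. All 84 probes passed the filter on dim probes (well above background on at least 6 of 24 arrays), so all 46 genes were among the 23990 genes tested. RNA was measured in the livers of 24 wild-type male C57Bl/6J mice aged 8 weeks, with 1 array per mouse and 6 mice in each of 4 groups. Fasted mice went without food for 24 h. The other groups ate chow freely for 24 h and drank tap water with 20% fructose, tap water with 20% glucose or plain tap water. All mice were killed at zeitgeber time 16 h, in the dark phase. Water-fed mice were the controls of the fasted mice and of both sugar groups, so the 3 comparisons against water share 6 control mice. Fructose and glucose, which are isomeric hexoses given at the same concentration and for the same time, were also compared with each other.

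Secreted and membrane proteins enter the ER through the SEC61 translocon, lose their signal peptides and fold with the help of chaperones, prolyl isomerases and disulfide-forming enzymes. Proteins that fail to fold are returned to the cytosol for degradation. When unfolded proteins accumulate, the sensors IRE1 (gene Ern1), PERK and ATF6 signal to the nucleus, where spliced XBP1 and cleaved ATF6 raise transcription of ER chaperones through ER stress response elements (ERSE). Hepatocytes secrete most plasma proteins and carry an extensive ER, and feeding is known to engage this response in liver.

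Promoters were read because the members moved together after fasting and the ERSE is the element through which ATF6 and XBP1 are known to act on ER chaperone genes. RefSeq promoter sequences (GRCm38.p6, 250 bases before to 50 after the start) were at hand for 38 of the 46 members. The ERSE was searched on both strands as CCAAT and CCACG separated by 9 bases. These letters stood in 10 of 38 member promoters (26.3%), against 37 of all 27025 genes with a promoter, members included (0.137%), and 0.166% of protein-coding genes. The 10 were Hspa5, Hsp90b1 with 2 copies, Calr, Canx, Dnajc3, Creld2, Pdia6, Ero1lb, Syvn1 and Derl3. Windows of 5 genes named in the results below, from 12 bases before to 12 after the motif, read 5′ to 3′ on the gene's strand with the outer boxes in capitals. Where the motif lies on the opposite strand, the boxes read CGTGG and ATTGG.
Hspa5 (chr2:34772013-34772055, plus strand): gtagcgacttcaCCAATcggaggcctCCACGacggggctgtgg
Pdia6 (chr12:17266479-17266521, plus strand): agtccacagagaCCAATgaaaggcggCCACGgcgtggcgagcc
Syvn1 (chr19:6046520-6046562, plus strand): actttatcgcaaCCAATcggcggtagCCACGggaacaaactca
Creld2 (chr15:88819508-88819550, plus strand): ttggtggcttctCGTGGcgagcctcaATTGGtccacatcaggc
Derl3 (chr10:75893230-75893272, plus strand): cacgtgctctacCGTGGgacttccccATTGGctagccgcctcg

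In Hspa5, Pdia6 and Syvn1 the motif ran in the direction of the gene and began 65, 98 and 44 bases before the start. In Creld2 and Derl3 it lay on the opposite strand, between 126 and 108 and between 156 and 138 bases before the start. The related ERSE-II, searched as ATTGG and CCACG separated by 1 base, stood in 2 of 38 member promoters (5.26%), those of Herpud1 and Dnajb11, against 0.0444% of all genes. Both promoters held this form and not the longer one. The Dnajb11 match began after the start, and its window is not shown. The Herpud1 window, from 52 to 42 bases before the start with its flanks, is shown.
Herpud1 (chr8:94386365-94386399, plus strand): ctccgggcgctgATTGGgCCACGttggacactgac

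The XBP1 core, searched on both strands as TGACG followed at once by TGG, stood in 2 of 38 member promoters (5.26%), those of Txndc5 and Txndc11, against 0.714% of all genes. The box CCACG alone, which the ERSE and ERSE-II contain, stood in 33 of 38 (86.8%), against 35.5% of all genes and 40.4% of protein-coding genes. Among members with a promoter sequence, the median log2 fold change of fasted over water-fed mice was -1.48 for the 10 with an ERSE (-4.29 to -0.89) and -1.12 for the 28 without (-6.31 to 0.10, the lowest being the fitted value of Bhlha15, for which only a bound holds), so the ranges overlapped. It was -0.96 for the 2 with an ERSE-II and -1.14 for the 36 without, -1.03 for the 2 with the XBP1 core and -1.14 for the 36 without, and -1.14 both for the 33 with the box CCACG and for the 5 without. Outside the members, 19 protein-coding genes held the ERSE letters, of which 9 were measured. Of these 9, 6 were lower in fasted mice, 1 was higher and 2 did not pass the test, beside 21.7% of all tested genes lower and 20.9% higher. The 6 included the related genes Xlr3a (-1.47) and Xlr3b (-1.44). Whether the motif copies of these genes are separate from each other and from those of the members was not examined. The counts over the 9 genes were not tested. A match describes the letters in the window and does not show binding. Because the members were chosen by function and the ERSE is known from ER chaperone genes, a higher share among members was built into the choice. That share says nothing about fasting. Hyou1, Hspa13, Manf, Derl1, Sec61a1, Ssr2, Sec11c and Spcs3 were not part of this search.

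Between 32516 and 36274 probes per array were well above background, arrays correlated at 0.970 to 0.995, and no member spot was saturated. The arrays lay on 3 slides with 2 arrays of each group on each slide. All 6 hepatocyte markers were well above background in every mouse. Levels are given as the log2 signal minus the array's 75th percentile, so 0 is that percentile and a difference of 1 is a 2-fold difference. Levels of different genes come from different probes and are not set against each other, except where marker levels were summed. Fold changes are given with their standard error (SE) from the limma fit, and a gene is said to have risen or fallen where its p, adjusted over all 23990 genes (Benjamini-Hochberg), was below 0.05.

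Fasting was accompanied by lower levels of most of the 46 ER folding and secretion genes examined. These genes were chosen with earlier results of these data known, so their counts do not describe the whole machinery. Lists of other secretory genes are given below. In fasted against water-fed mice 44 of 46 members fell, 0 rose and 2 did not pass the test, whereas 21.7% of all tested genes fell and 20.9% rose (42.6% in either direction). The median log2 fold change was -1.12 over the members and 0.01 over all genes tested. At least 2-fold lower were 27 members, against 3.71% of all genes. All 6 fasted values lay below all 6 water-fed values in 41 of 46 members (12.4% of all genes). They also lay below all 18 fed values in 39 of 46 members (8.46% of all genes), and above all 18 in 0 members (8.82% of all genes). The counts of falls include Fkbp11 and Bhlha15, whose probes passed the filter on dim probes through fed arrays alone. Since this is whole liver, fewer cells of a type and less RNA per cell cannot be told apart.

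Averaged over the 46 members, each centred on its mean over all mice, the level ranged from -1.05 to -0.87 (median -0.96) in fasted mice, -0.02 to 0.40 (0.14) in fructose-fed mice, 0.19 to 0.55 (0.30) in glucose-fed mice and 0.17 to 0.65 (0.44) in water-fed mice. The fasted mice stood apart from every fed mouse in the mean of each role, while the 3 fed groups overlapped. The means of the regulators and prolyl isomerases, and of all members, hold measured fasted values of Bhlha15 and Fkbp11 that were not well above background. The other genes of these roles, Xbp1, Ern1, Ppib and Fkbp2, also lay below all fed mice. Within the 3 slides taken separately, 41, 39 and 39 members fell with fasting, beside 2122, 2175 and 1911 of all 23990 genes. Of the 38 further probes of the members, 30 fell, 1 rose and 7 did not pass the test.

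**Figure D1:**
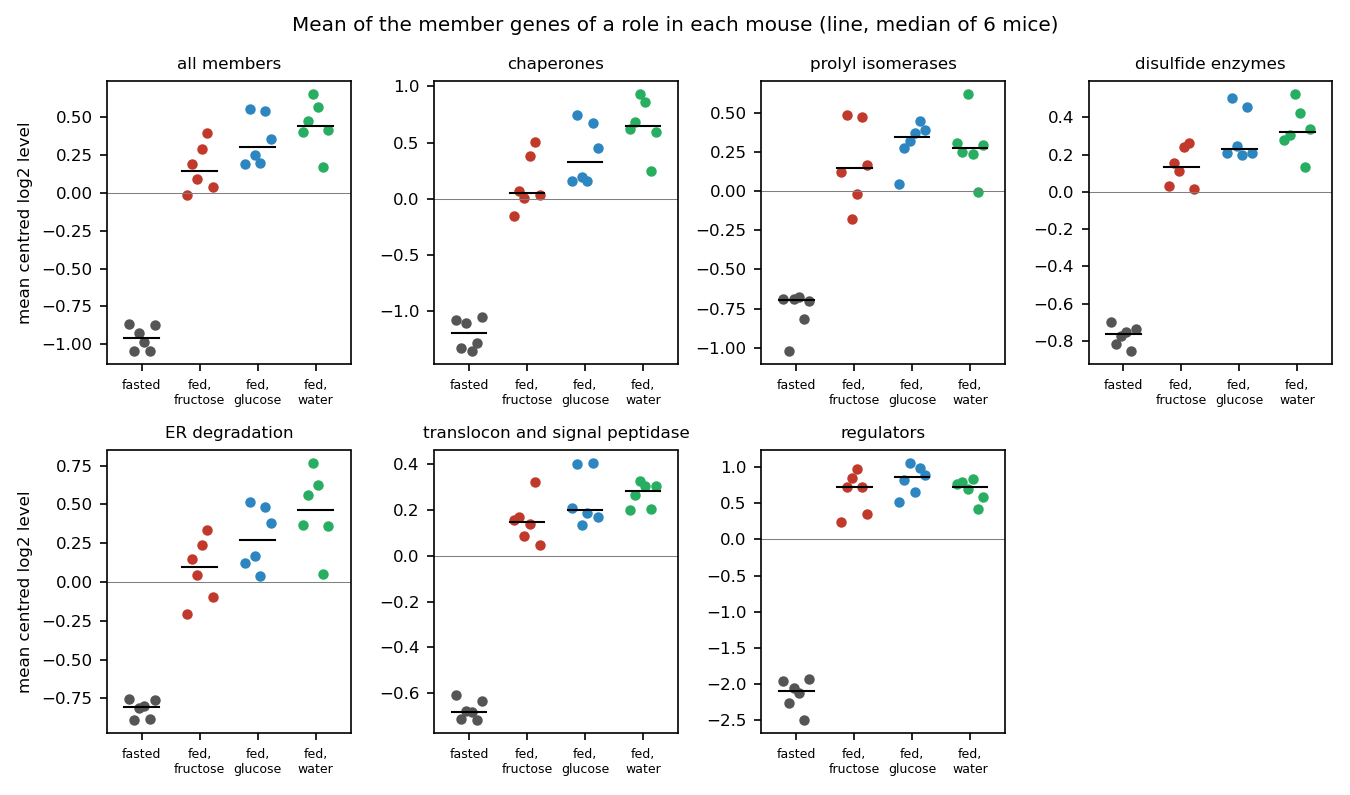
Mean level of the member genes of each role in each mouse, on the log2 scale after centring every gene on its mean over 24 mice. Points are mice, lines are medians of 6 mice, and groups run from fasted to fructose-fed, glucose-fed and water-fed mice. All fasted mice lie below all fed mice in each panel, and over all members they range from -1.05 to -0.87. The fasted values of Bhlha15 (regulators) and Fkbp11 (prolyl isomerases) in these means were not well above background.

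The 12 chaperones all fell, with a median log2 fold change of -1.52. Sdf2l1, a partner of the ER J-domain chaperones, had log2 levels of -0.26 to 0.17 (median -0.05) in fasted mice, 2.24 to 3.57 (median 2.86) in fructose-fed mice, 2.91 to 3.97 (median 3.32) in glucose-fed mice and 3.10 to 4.46 (median 3.85) in water-fed mice. All fasted values lay below all fed values, and Sdf2l1 was 15.1-fold lower in fasted than in water-fed mice (log2 fold change -3.91 ± 0.23 SE, adjusted p = 9.92e-12). Creld2, an ER-resident protein with disulfide isomerase activity, stood at 3.56 to 4.21 (median 3.87) in fasted mice, 5.40 to 6.80 (median 5.88) in fructose-fed mice, 5.57 to 6.92 (median 6.22) in glucose-fed mice and 6.08 to 7.51 (median 6.98) in water-fed mice. The fasted mice again did not overlap any fed mouse, and Creld2 was 8.42-fold lower than in water-fed mice (-3.07 ± 0.26, adjusted p = 2.57e-09). Manf, a cofactor of the chaperone BiP that is also secreted under ER stress, measured 1.76 to 2.45 (median 2.12) in fasted mice, 4.07 to 4.95 (median 4.32) in fructose-fed mice, 4.47 to 5.16 (median 4.73) in glucose-fed mice and 4.60 to 5.51 (median 5.10) in water-fed mice. Its fasted values were below every fed value, 8.16-fold lower than with water (-3.03 ± 0.18, adjusted p = 7.41e-12).

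Hspa5, which encodes BiP, the main ER HSP70 chaperone and the repressor of all 3 stress sensors, had log2 levels of 5.96 to 6.41 (median 6.26) in fasted mice, 6.91 to 7.52 (median 7.13) in fructose-fed mice, 7.22 to 7.88 (median 7.46) in glucose-fed mice and 7.51 to 8.30 (median 7.95) in water-fed mice. Fasted mice lay below all fed mice and 3.29-fold below water-fed mice (-1.72 ± 0.14, adjusted p = 1.25e-09). The BiP nucleotide exchange factor Hyou1 was 5.77-fold lower (-2.53 ± 0.15, adjusted p = 6.06e-12), and all 4 of its probes fell. Among the J-domain partners of BiP, Dnajb11 (-1.55), Dnajb9 (-1.14) and Dnajc3 (-0.98) fell, and so did the HSP70 Hspa13 (-1.50) on the log2 scale. The smallest log2 fold changes of this role were those of Hsp90b1, the ER HSP90 (-0.97), and of the lectin chaperones Calr (-0.94) and Canx (-0.89). Dnajb9 was the chaperone whose fasted values overlapped those of fed mice, in the fructose group. The probes of Dnajb11 disagreed: 2 gave log2 fold changes of -1.55 and -1.33, and the other gave 1.67 (adjusted p = 4.89e-05).

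**Figure D2:**
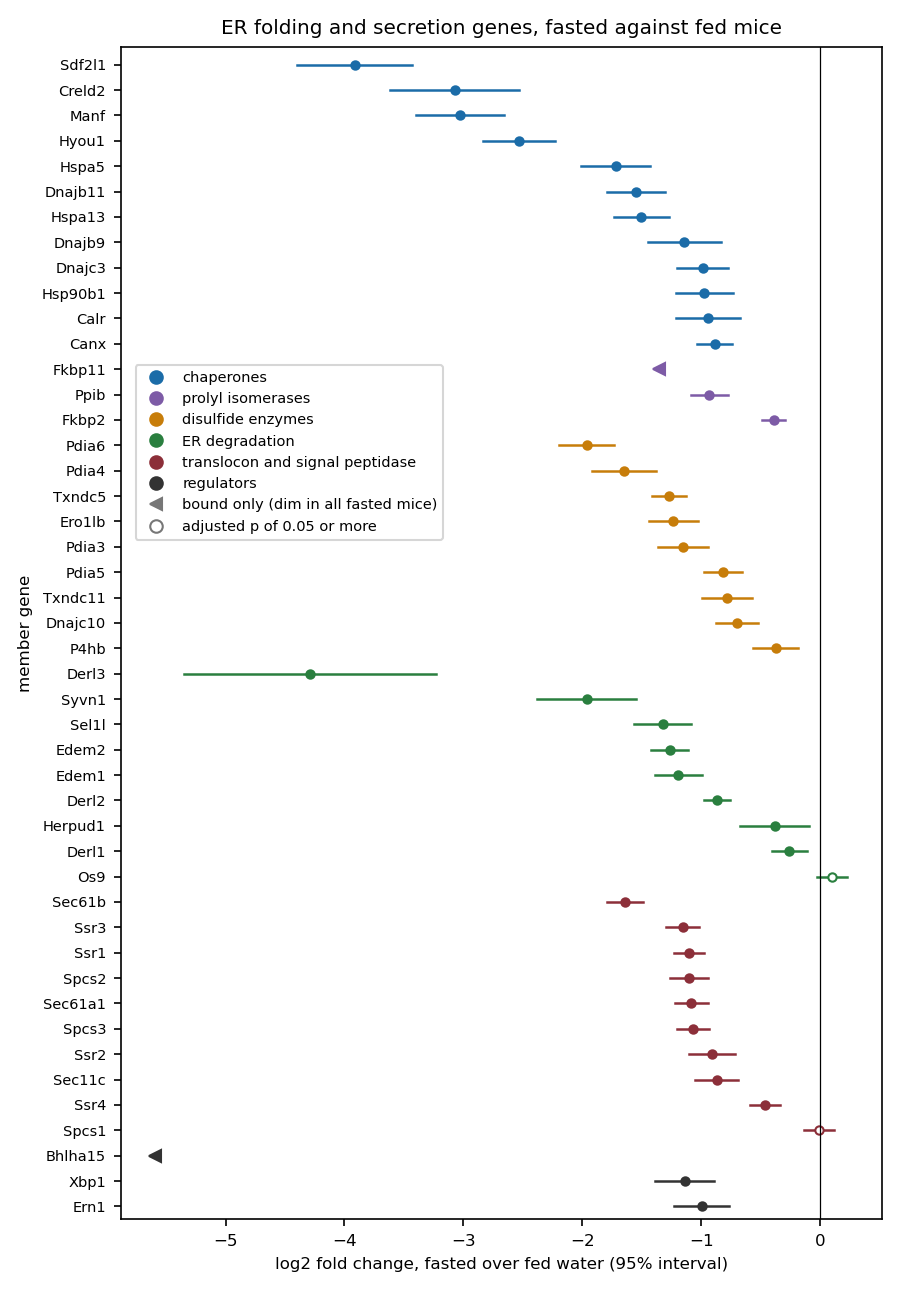
Log2 fold change of each member in fasted over water-fed mice with its 95% interval (x axis), genes grouped and coloured by role (y axis). Filled points have an adjusted p under 0.05, open points do not, and arrowheads mark the bounds of Bhlha15 and Fkbp11, which were not well above background in fasted mice. The points of 44 members lie to the left of 0 and filled or as bounds, and Os9 and Spcs1 are open.

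The 3 prolyl isomerases, which speed the turning of proline bonds during folding, all fell. Fkbp11 was not well above background in any of the 6 fasted mice and was so in all 18 fed mice. Its measured log2 levels were -6.78 to -5.79 (median -5.99) in fasted mice, -5.17 to -3.62 (median -4.22) in fructose-fed mice, -4.81 to -3.75 (median -3.95) in glucose-fed mice and -5.13 to -3.37 (median -4.34) in water-fed mice. Against water-fed mice it was at least 2.56-fold lower (adjusted p = 1.49e-05), a bound set by the dimmest signals that were well above background. The probe passed the filter on dim probes through fed arrays alone, and the p rests on measured fasted values near background. Ppib, cyclophilin B, had log2 levels of 5.16 to 5.39 (median 5.25) in fasted mice, 5.76 to 6.20 (median 5.94) in fructose-fed mice, 5.98 to 6.30 (median 6.06) in glucose-fed mice and 6.09 to 6.31 (median 6.18) in water-fed mice. No fasted mouse overlapped a fed mouse, and the log2 fold change against water was -0.93 ± 0.08 (adjusted p = 1.07e-09). Fkbp2 ranged over 4.89 to 5.07 (median 5.01) in fasted mice, 5.16 to 5.38 (median 5.32) in fructose-fed mice, 5.29 to 5.47 (median 5.36) in glucose-fed mice and 5.33 to 5.44 (median 5.40) in water-fed mice, and its log2 fold change of -0.39 ± 0.05 (adjusted p = 4.99e-07) was smaller, although fasted mice lay below all fed mice.

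All 9 disulfide enzymes fell, with a median log2 fold change of -1.15. Pdia6, a protein disulfide isomerase that also acts on IRE1, had log2 levels of 4.68 to 5.20 (median 4.88) in fasted mice, 6.36 to 6.74 (median 6.42) in fructose-fed mice, 6.56 to 7.19 (median 6.68) in glucose-fed mice and 6.63 to 7.05 (median 6.89) in water-fed mice. Fasted values lay below all fed values, 3.89-fold lower than with water (-1.96 ± 0.11, adjusted p = 5.18e-12). Pdia4, the isomerase ERp72, stood at 1.30 to 1.69 (median 1.46) in fasted mice, 2.34 to 2.82 (median 2.53) in fructose-fed mice, 2.75 to 3.30 (median 2.95) in glucose-fed mice and 2.67 to 3.51 (median 3.11) in water-fed mice. It was 3.13-fold lower in fasted than in water-fed mice, without overlap (-1.65 ± 0.13, adjusted p = 6.89e-10). For Txndc5, a thioredoxin-domain isomerase, the log2 levels were 3.26 to 3.58 (median 3.50) in fasted mice, 4.38 to 4.72 (median 4.60) in fructose-fed mice, 4.55 to 4.87 (median 4.65) in glucose-fed mice and 4.64 to 4.88 (median 4.74) in water-fed mice, with no overlap and a log2 fold change of -1.27 ± 0.07 (adjusted p = 2.11e-12).

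The oxidase Ero1lb (now named Ero1b), which reoxidises the isomerases, had a log2 fold change of -1.23 ± 0.10, and Pdia3, which works with calnexin and calreticulin, one of -1.15 ± 0.10. Pdia5 (-0.81), Txndc11 (-0.78) and the reductase Dnajc10 (-0.70) changed less. P4hb, the founding member of the family, had the smallest log2 fold change of the role at -0.37 ± 0.09 (adjusted p = 0.00172), and its fasted and water-fed values overlapped. Fasted values of Txndc11 overlapped those of fructose-fed mice. Single further probes of Dnajc10 (0.07) and P4hb (-0.44, adjusted p = 0.148) did not pass the test.

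Of the 9 ER degradation genes 8 fell, with a median log2 fold change of -1.19. Derl3, a derlin of the retrotranslocation complex, had log2 levels of -2.11 to -0.71 (median -1.20) in fasted mice, -0.08 to 2.65 (median 1.88) in fructose-fed mice, 1.02 to 3.16 (median 1.94) in glucose-fed mice and 1.03 to 4.52 (median 2.98) in water-fed mice. Fed values spread widely, yet no fasted mouse reached them, and Derl3 was 19.6-fold lower than in water-fed mice (-4.29 ± 0.51, adjusted p = 3.85e-07). Syvn1, the ubiquitin ligase HRD1, stood at 5.04 to 5.24 (median 5.15) in fasted mice, 5.93 to 6.89 (median 6.41) in fructose-fed mice, 6.03 to 7.01 (median 6.60) in glucose-fed mice and 6.25 to 7.56 (median 7.26) in water-fed mice. Fasted mice lay below all fed mice, and the log2 fold change against water was -1.96 ± 0.20 (adjusted p = 3.84e-08). Sel1l, the adaptor of that ligase, measured 4.24 to 4.55 (median 4.48) in fasted mice, 5.01 to 5.65 (median 5.19) in fructose-fed mice, 5.28 to 5.79 (median 5.58) in glucose-fed mice and 5.39 to 6.06 (median 5.83) in water-fed mice, and its log2 fold change was -1.32 ± 0.11 (adjusted p = 3.21e-09).

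The mannosidase-like proteins Edem2 (-1.26) and Edem1 (-1.19), which mark misfolded glycoproteins, and the derlin Derl2 (-0.87) fell without overlap. Derl1 (-0.26 ± 0.07, adjusted p = 0.00597) and Herpud1, a scaffold of the ligase complex (-0.38 ± 0.14, adjusted p = 0.0301), fell with overlap between fasted and water-fed mice. Os9, a lectin that delivers glycoproteins to the ligase, had log2 levels of 5.86 to 6.04 (median 5.93) in fasted mice, 5.45 to 5.85 (median 5.61) in fructose-fed mice, 5.67 to 5.88 (median 5.75) in glucose-fed mice and 5.75 to 5.95 (median 5.84) in water-fed mice. It did not pass the test (0.10 ± 0.06, 95% interval -0.02 to 0.23, adjusted p = 0.196), and it was the member with a positive log2 fold change. A further probe of Derl1 (-0.14) and one of Herpud1 (-0.42) did not pass the test.

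**Figure D3:**
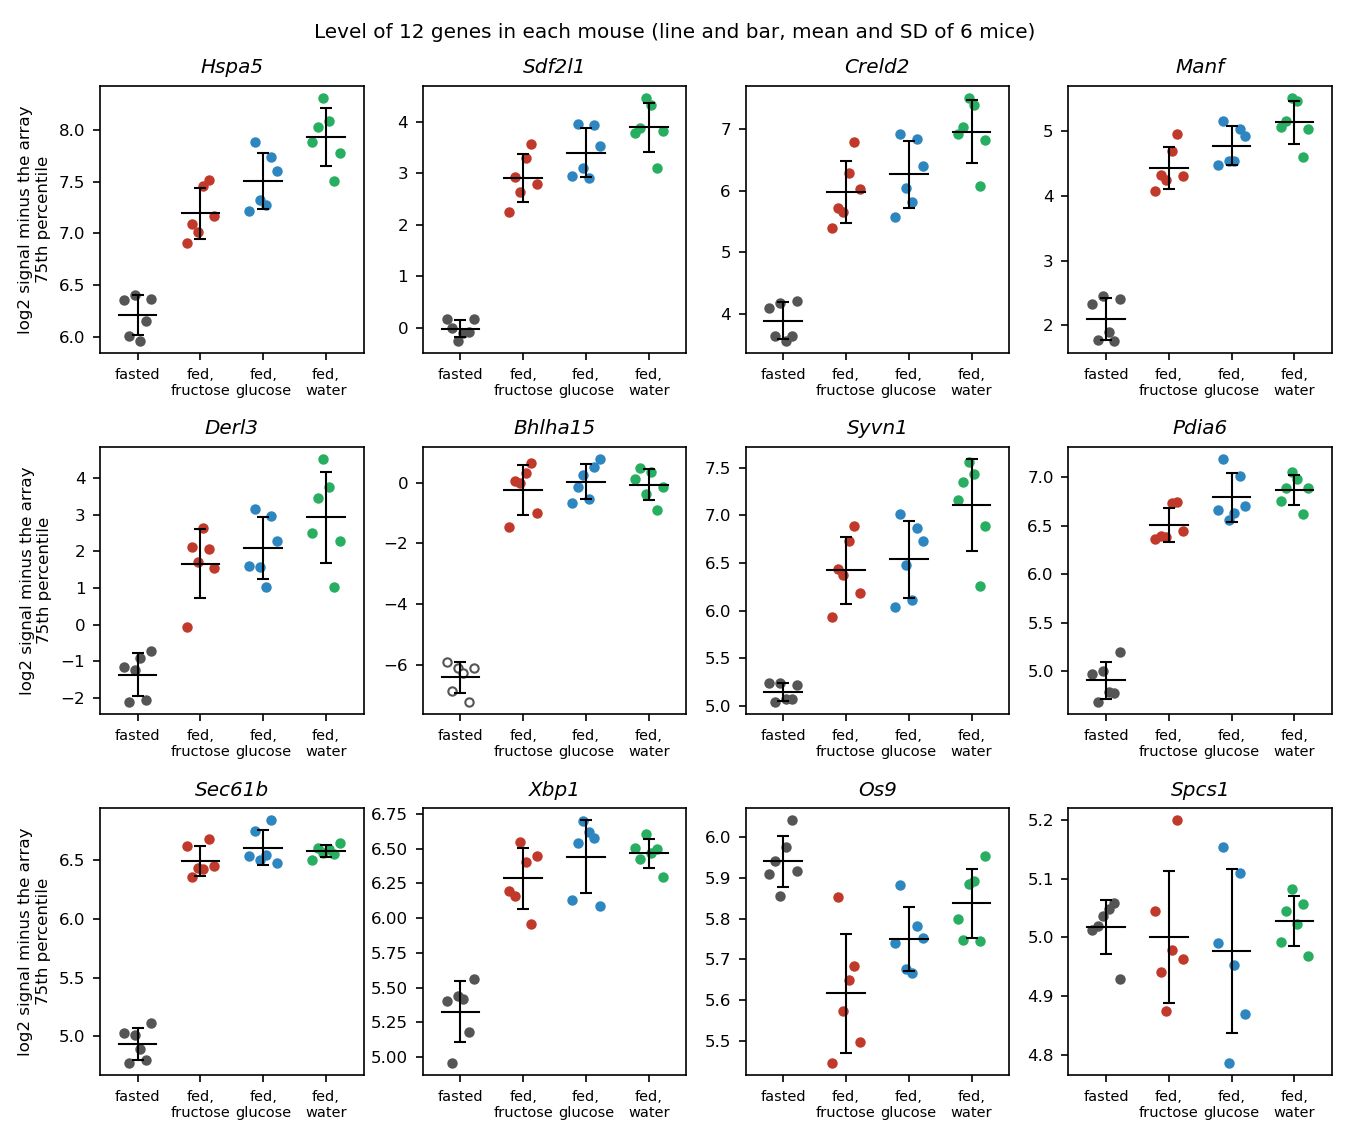
Level of 12 member genes in each mouse (y axis, log2 signal minus the array's 75th percentile, a scale of its own in each panel), by group (x axis). Points are mice, open where the probe was not well above background, with the mean (line) and SD (bar) of 6 mice. Fasted mice lie below all fed mice in the panels of 10 genes, and overlap them in those of Os9 and Spcs1.

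Among the 10 genes of the translocon and signal peptidase 9 fell, with a median log2 fold change of -1.07. Sec61b, the beta subunit of the translocon, had log2 levels of 4.77 to 5.11 (median 4.95) in fasted mice, 6.36 to 6.68 (median 6.44) in fructose-fed mice, 6.47 to 6.84 (median 6.54) in glucose-fed mice and 6.50 to 6.65 (median 6.57) in water-fed mice. The fasted mice were far from all fed mice, 3.11-fold below water (-1.64 ± 0.07), and its adjusted p of 1.2e-13 was the lowest of the members. Ssr3 and Ssr1 encode the gamma and alpha subunits of the translocon-associated protein complex. Ssr3 measured 3.86 to 4.03 (median 3.93) in fasted mice, 4.89 to 5.24 (median 5.06) in fructose-fed mice, 5.00 to 5.41 (median 5.21) in glucose-fed mice and 4.98 to 5.19 (median 5.10) in water-fed mice (log2 fold change -1.16 ± 0.07, adjusted p = 5.5e-12). Ssr1 measured 3.09 to 3.31 (median 3.23) in fasted mice, 4.07 to 4.31 (median 4.14) in fructose-fed mice, 4.14 to 4.50 (median 4.29) in glucose-fed mice and 4.25 to 4.41 (median 4.33) in water-fed mice (-1.10 ± 0.06, adjusted p = 2.78e-12). Neither overlapped between fasted and fed mice.

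Sec61a1, the channel subunit, had a log2 fold change of -1.08 ± 0.07, close to those of the signal peptidase subunits Spcs2 (-1.10 ± 0.08) and Spcs3 (-1.07 ± 0.07). Ssr2 (-0.91), the catalytic signal peptidase subunit Sec11c (-0.87) and Ssr4 (-0.46) fell as well. Spcs1, a further signal peptidase subunit, ranged over 4.93 to 5.06 (median 5.03) in fasted mice, 4.87 to 5.20 (median 4.97) in fructose-fed mice, 4.79 to 5.15 (median 4.97) in glucose-fed mice and 4.97 to 5.08 (median 5.03) in water-fed mice. Its groups overlapped throughout, and the log2 fold change of -0.01 ± 0.06 (95% interval -0.13 to 0.11, adjusted p = 0.917) did not pass the test.

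All 3 regulators fell. Xbp1, the transcription factor activated when IRE1 splices its message, had log2 levels of 4.96 to 5.56 (median 5.41) in fasted mice, 5.96 to 6.55 (median 6.30) in fructose-fed mice, 6.09 to 6.70 (median 6.56) in glucose-fed mice and 6.30 to 6.61 (median 6.48) in water-fed mice. Fasted mice lay below all fed mice, 2.2-fold lower than with water (-1.14 ± 0.12, adjusted p = 5.12e-08); splicing was not measured. Ern1, which encodes IRE1 alpha, measured 1.66 to 2.28 (median 1.77) in fasted mice, 2.76 to 3.37 (median 3.16) in fructose-fed mice, 3.01 to 3.38 (median 3.16) in glucose-fed mice and 2.65 to 3.02 (median 2.85) in water-fed mice. It was 1.99-fold lower in fasted than in water-fed mice, without overlap (-0.99 ± 0.11, adjusted p = 1.51e-07), and 3 of its 5 probes did not pass the test. Bhlha15, also called MIST1, is a transcription factor of secretory cells and a known XBP1 target. Its measured log2 levels were -7.20 to -5.90 (median -6.17) in fasted mice, -1.46 to 0.64 (median 0.02) in fructose-fed mice, -0.66 to 0.77 (median 0.05) in glucose-fed mice and -0.89 to 0.48 (median -0.01) in water-fed mice. It was well above background in all 18 fed mice and in 0 of 6 fasted mice, and was at least 48.2-fold lower than in water-fed mice (adjusted p = 2.17e-12). Its probe thus passed the filter on dim probes through fed arrays alone, and the p rests on measured fasted values near background.

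Because Bhlha15 and several members are abundant in pancreatic acinar and plasma cells, markers of those cells were read in the same livers. Of 14 acinar markers, 5 (Cpb1, Pnlip, Prss2, Try4 and Ptf1a) were not well above background in any mouse. The summed level of the 14, in units of each array's 75th percentile, was 9.93 to 16.2 in fasted, 16.2 to 27.8 in fructose-fed, 16.6 to 24.3 in glucose-fed and 23.7 to 28.0 in water-fed mice. The brightest probes weigh most in such a sum, and its change mostly followed 1 gene. The mean log2 level of Cela1 was 2.66 in fasted and 4.27 in water-fed mice, and that of Amy2a5 was 2.55 and 2.43. Of the 8 acinar markers tested, Cela1, an elastase, fell (log2 fold change -1.62, adjusted p = 3.13e-06), Rbpjl rose (0.63, adjusted p = 0.00994) and 6 did not pass the test. The summed level of 9 plasma cell and B cell markers was 0.865 to 1.26 in fasted, 0.715 to 1.08 in fructose-fed, 0.688 to 1.08 in glucose-fed and 0.810 to 1.04 in water-fed mice, and Tnfrsf17 was not well above background in any mouse. Of the 8 of these tested, Mzb1 rose (0.76, adjusted p = 0.00194), Ms4a1 fell (-0.77, adjusted p = 0.0255) and 6 did not pass the test. The summed level of 5 cholangiocyte markers was 2.35 to 6.35 in fasted, 4.95 to 9.48 in fructose-fed, 5.14 to 9.75 in glucose-fed and 4.72 to 7.75 in water-fed mice. Among hepatocyte markers 3 of 6 rose and 1 fell. Among markers of other liver cells, 2 of 8 for Kupffer cells rose and 0 fell, 1 of 8 for stellate cells rose and 3 fell, 3 of 6 for endothelial cells rose and 2 fell, and 3 of 5 for cholangiocytes fell. Beside all these marker counts, 20.9% of all tested genes rose and 21.7% fell with fasting. The part of these cells in the members' change was not tested.

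Other genes of the secretory pathway were counted as whole lists, beside the 21.7% of all genes that fell with fasting and the 20.9% that rose. In the list for the oligosaccharyltransferase and glycan processing, 12 of 14 genes fell and 0 rose with fasting, led by Ostc (-1.76), the folding sensor Uggt1 (-1.35) and Rpn1 (-1.33) on the log2 scale. Further translocon and targeting genes fell in 10 of 14 and rose in 1, with Sec61g (-1.34), Tram1 (-1.29) and Srprb (-1.03) foremost. Further ER folding enzymes fell in 11 of 17 measured and rose in 1, among them Nucb2 (-2.06), Erp29 (-0.85) and Cdnf, a paralogue of Manf, which rose (1.15).

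Further ER degradation genes fell in 4 of 16 and rose in 6, a share of falls near that of all genes, including Selk (-0.74), the VCP cofactor Nploc4 (0.66) and the deglycosylase Ngly1 (0.55). Genes of COPII vesicles and cargo sorting fell in 13 of 19 measured and rose in 4. The paralogous coat subunits Sec23b (-1.71) and Sec23a (0.78) moved in opposite directions, and the cargo receptor Lman1 fell (-0.78). Other sensors, factors and targets of the unfolded protein response fell in 5 of 14 and rose in 4. The PERK gene Eif2ak3 (-1.29) and the factor Creb3l2 (-1.22) fell, and the pseudokinase Trib3, a target of the ATF4 arm, rose (2.03). Secreted plasma proteins, the cargo of this machinery, fell in 1 of 20 (Ttr, -0.24) and rose in 2 (Plg, 0.23, and Apoh, 0.21), and 17 did not pass the test. The median log2 fold changes of these 7 lists were -0.70 for glycan processing, -0.53 for further translocon genes, -0.26 for further folding enzymes, -0.01 for further degradation genes, -0.27 for COPII, -0.13 for the stress response and -0.0019 for plasma proteins, beside 0.01 over all genes. With fructose against water, 1 gene of these lists fell among the COPII genes (Lman2, -0.20, adjusted p = 0.0494) and 1 among the plasma proteins (Apoa1, -0.38, adjusted p = 0.0238), and with glucose none passed the test.

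Fructose in the drinking water was accompanied by lower levels of a few chaperones and degradation genes. In fructose-fed against water-fed mice 6 members fell and 0 rose, beside 0.463% of all tested genes that fell and 0.488% that rose (0.95% in either direction). The median log2 fold change was -0.20 over the members and -0.02 over all genes, and it was negative in 39 of 46 members and in 55.3% of all genes. By role, 3 of 12 chaperones, 1 of 9 disulfide enzymes and 2 of 9 ER degradation genes fell, and no prolyl isomerase, translocon gene or regulator passed the test. At an unadjusted p under 0.05, 26 members were lower and 2 higher, beside 2197 of all genes that were lower (9.16%) and 1687 that were higher.

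Hspa5 had log2 levels of 6.91 to 7.52 (median 7.13) in fructose-fed mice, against 7.51 to 8.30 (median 7.95) in water-fed mice, and was 1.67-fold lower (-0.74 ± 0.14, adjusted p = 0.0139). Hsp90b1 measured 6.23 to 6.61 (median 6.57) in fasted mice, 6.73 to 7.14 (median 6.89) in fructose-fed mice, 6.97 to 7.53 (median 7.11) in glucose-fed mice and 7.07 to 7.74 (median 7.50) in water-fed mice (-0.58 ± 0.12 for fructose over water, adjusted p = 0.0198). Sdf2l1 measured 2.24 to 3.57 (median 2.86) in fructose-fed mice, against 3.10 to 4.46 (median 3.85) in water-fed mice and was 1.97-fold lower (-0.98 ± 0.23, adjusted p = 0.0418). Derl3, with the largest log2 fold change of all members here (-1.26 ± 0.51), did not pass the test (adjusted p = 0.214). In each of the 3 chaperones the highest fructose-fed mouse lay above the lowest water-fed mouse. Pdia4 stood at 2.34 to 2.82 (median 2.53) in fructose-fed mice, against 2.67 to 3.51 (median 3.11) in water-fed mice (-0.55 ± 0.13, adjusted p = 0.0403). Sel1l stood at 5.01 to 5.65 (median 5.19) in fructose-fed mice, against 5.39 to 6.06 (median 5.83) in water-fed mice (-0.52 ± 0.11, adjusted p = 0.0351). Edem1 stood at 2.64 to 2.90 (median 2.78) in fasted mice, 3.38 to 3.92 (median 3.48) in fructose-fed mice, 3.55 to 3.96 (median 3.76) in glucose-fed mice and 3.73 to 4.10 (median 4.00) in water-fed mice (-0.39 ± 0.10 for fructose over water, adjusted p = 0.0498). These 3 overlapped too. Further probes of Sel1l (-0.35 and -0.07) and of Edem1 (-0.08) did not pass the test with fructose. Of the 38 further probes of all members, 3 fell with fructose, 0 rose and 35 did not pass the test. Pdia3 and Sec61a1 did not overlap between the groups (0.93% of all genes lay below in this way and 0.946% above) but did not pass the test, with log2 fold changes of -0.32 (adjusted p = 0.122) and -0.19 (adjusted p = 0.156).

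These calls depended on the set of arrays and, for Sel1l and Edem1, also on the probe. With only fructose-fed and water-fed arrays in the limma fit 0 members passed, while 21 of all 23990 genes fell and 55 rose. Within single slides, with 2 mice per group, 0 of all 23990 genes passed, so those fits say nothing about the members. Leaving out fructose-fed replicate 1 or 3 left 1 member, and replicate 6 left 2, while leaving out replicate 5 gave 10. Of the water-fed mice, leaving out replicate 1 left 3, replicates 2, 3 and 6 left 2 each, and replicate 4 left 1, while leaving out replicate 5 gave 10. Hspa5 fell in all 24 fits that left out 1 array, Hsp90b1 in 21, Sel1l in 16, Pdia4 in 15, Sdf2l1 in 11 and Edem1 in 6. The log2 fold change of each stayed negative in all of them.

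Glucose in the drinking water brought no member past the test (0 of 46 by limma, beside 0.454% of all tested genes that fell and 0.425% that rose, 0.88% in either direction). At an unadjusted p under 0.05, 8 members were lower and 5 higher, beside 1532 of all 23990 genes that were lower (6.39%) and 1257 that were higher. The median log2 fold change was -0.07 over the members and -0.0045 over all genes. The log2 fold change was negative in 31 members and positive in 15, beside 51.5% of all genes negative. The largest positive one was that of Ero1lb at 0.41 ± 0.10 (adjusted p = 0.0539), with log2 levels of 2.36 to 2.83 (median 2.70) in glucose-fed mice, against 2.08 to 2.45 (median 2.19) in water-fed mice. Edem2 (0.28 ± 0.08, adjusted p = 0.0804) and Derl2 (0.21 ± 0.05, adjusted p = 0.065) were higher without overlap, as 0.934% of all genes were. Pdia5 (-0.23 ± 0.08, adjusted p = 0.191) was lower without overlap, as 1.45% of all genes were. For the 6 genes that fell with fructose, the log2 fold changes with glucose were -0.43 for Hspa5, -0.30 for Hsp90b1, -0.49 for Sdf2l1, -0.15 for Pdia4, -0.22 for Sel1l and -0.23 for Edem1, against the same 6 water-fed mice.

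**Figure D4:**
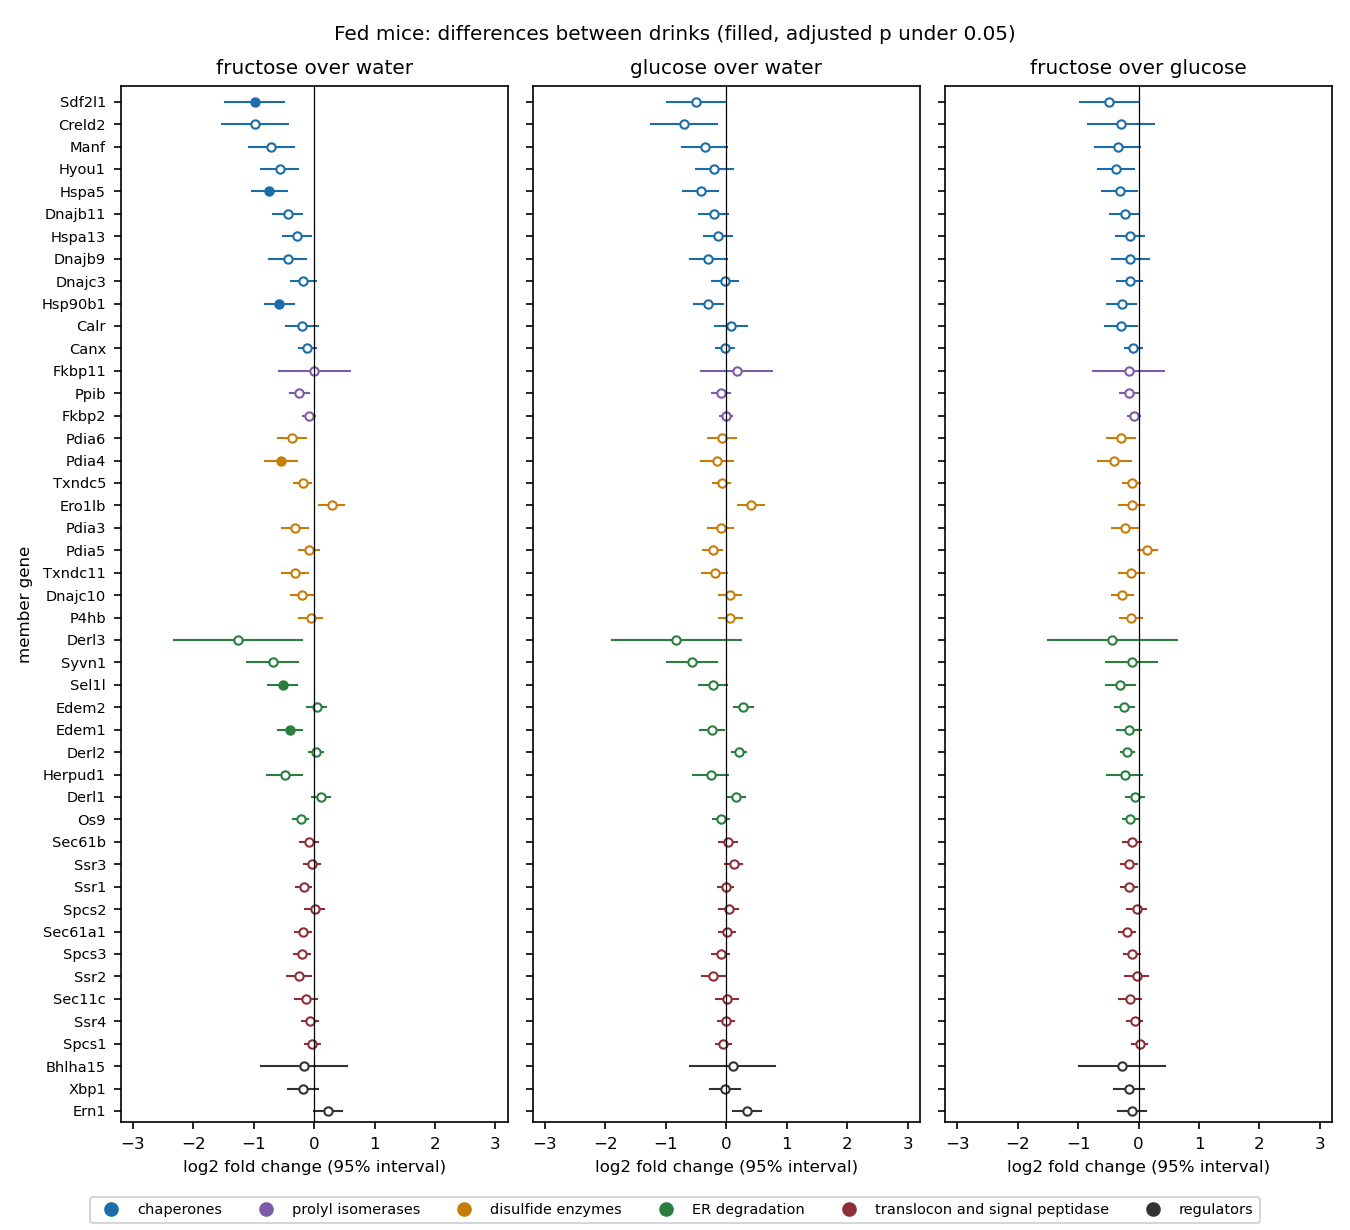
Log2 fold change of each member with its 95% interval (x axis) for fructose over water, glucose over water and fructose over glucose, genes in the order of the fasting plot (y axis). Filled points have an adjusted p under 0.05: 6 in the left panel, and none in the other panels. The left and middle panels share the 6 water-fed mice.

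The direct comparison of fructose with glucose, at the same 20% and 24 h, also called 0 of 46 members by limma, and 0 of all 23990 genes (0%). At an unadjusted p under 0.05, 17 members were lower with fructose and 0 higher, beside 1068 of all genes that were lower (4.45%) and 814 that were higher. Array weights called 1 gene higher and 5 lower, normexp 1 higher and 3 lower, with no member among the calls of any setting run. The log2 fold change was negative in 44 of 46 members (53.4% of all genes), with a median of -0.16 over the members and -0.01 over all genes. For Hspa5 it was -0.31 (95% interval -0.60 to -0.02, adjusted p = 0.604). For Pdia4 it was -0.40 (-0.67 to -0.13, adjusted p = 0.467). For Sdf2l1 it was -0.49 (-0.97 to -0.00315, adjusted p = 0.636). These intervals are not adjusted for the 46 members compared, and a p that misses the threshold does not show that the sugars act alike. No member stood without overlap between the sugars, beside 0.313% of all genes that lay below and 0.296% above. Several members varied together among the fed mice, as given below, so the member counts of the sugar comparisons are not counts of independent genes.

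Among the fed mice, several of these genes varied together within a group. Over the 18 fed mice, deviations from the group mean of Hspa5 were set against those of 5 genes. Pearson's r was 0.964 for Sdf2l1, 0.973 for Manf, 0.969 for Creld2 and 0.898 for Derl3. Spearman's rho was 0.955, 0.971, 0.971 and 0.899 in the same order. By permutation within groups, two-sided, each had p = 1e-05, the smallest that 100000 resamples can give, and 1.25e-05 after Benjamini-Hochberg adjustment over the 5 relations. Xbp1 gave r of 0.0086 and rho of -0.0072 (permutation p = 0.974 and 0.983, the same after adjustment). Without the 2 mice farthest from the median of Hspa5, r was 0.960 for Sdf2l1, 0.971 for Manf, 0.969 for Creld2, 0.865 for Derl3 and -0.139 for Xbp1.

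Within the 3 slides, r lay between 0.911 and 0.984 for Sdf2l1, 0.941 and 0.990 for Manf, 0.951 and 0.994 for Creld2, and 0.834 and 0.939 for Derl3. Within the single fed groups of 6 mice, it was 0.954 to 0.981 for Sdf2l1, 0.961 to 0.996 for Manf, 0.960 to 0.981 for Creld2 and 0.734 to 0.994 for Derl3. For Xbp1 it ran from -0.359 to -0.034 within slides and from -0.333 to 0.430 within groups. These 5 relations were chosen with earlier results of these data known. The r of Hspa5 with other genes was not read, so these values do not show that the co-variation is particular to these genes.

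**Figure D5:**
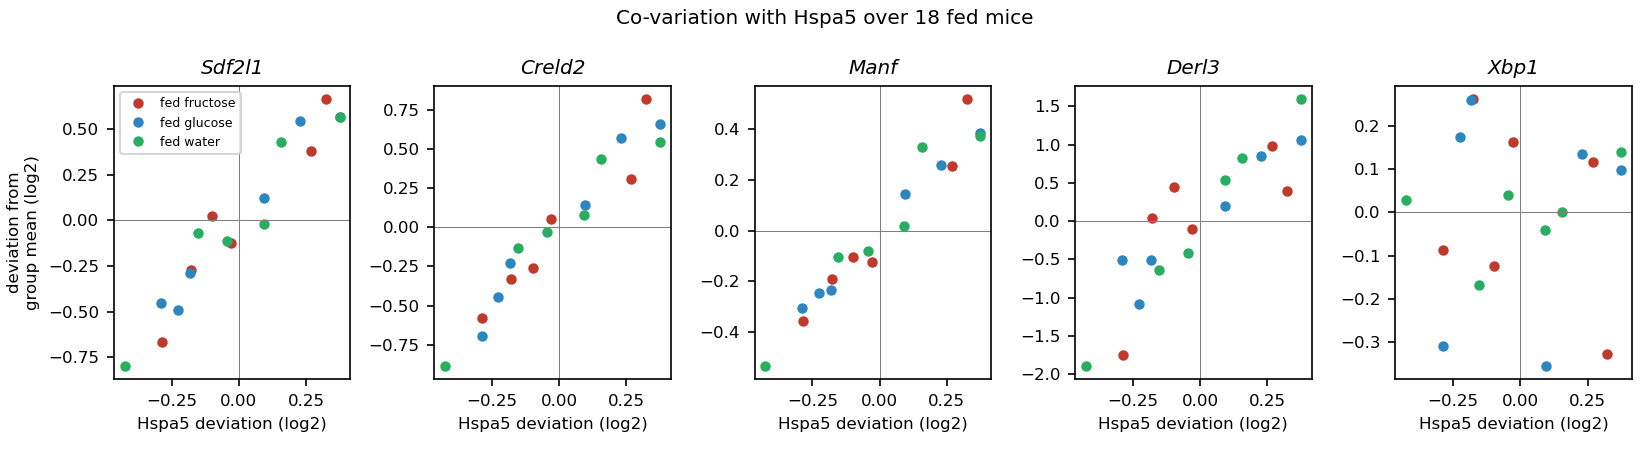
Deviation from the group mean of Sdf2l1, Creld2, Manf, Derl3 and Xbp1 (y axes, log2, a scale of its own in each panel) against that of Hspa5 (x axes, log2) in 18 fed mice. Points are mice, coloured by group. The points rise along a line for Sdf2l1, Creld2, Manf and Derl3 and scatter for Xbp1 (r of 0.0086).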

How the data were processed

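Liver RNA of 24 mice was hybridised to 1-colour (Cy3) Agilent arrays, 1 per mouse. The authors deposited scanner files with a background-corrected intensity per spot, extracted with Agilent Feature Extraction 10.10.1.1 per the submitters' processing notes, which also name limma. The log2 values that the authors deposited for the series were an alternative source.

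Here the log2 of the processed intensity was taken minus each array's 75th percentile, control spots were left out and spots of a probe were averaged. Probes well above background on at least 6 of 24 arrays were kept (36230 probes), and the probe of highest mean signal stood for each gene name (23990 genes). All 4 groups entered 1 limma fit (lmFit and eBayes, threshold 0.05 after Benjamini-Hochberg adjustment over all genes), and members were read from it. A gene not well above background in every mouse of a group has only a bound there, which sets the brighter group's mean against the lowest signal well above background on each array of the dimmer group. Array number limits the precision. Groups came from the labels, and the spread between mice is the error throughout.

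Full values were given for the 3 members of each role with the largest absolute log2 change in fasted against water-fed mice, the 3 regulators, and members called with a sugar, and also for Os9 and Spcs1, which missed the test in fasted mice and were added after their values were seen, and for Ero1lb with glucose, likewise; of each further list, up to 3 called genes. The members, lists and tests were chosen with earlier results of these data known. Alternatives were normexp background correction (offset 50), quantile normalization, median centring, a stricter filter or none, the mean of all probes, every probe on its own, the deposited log2 values, slide and replicate blocks, single slides, array weights, only the arrays compared, and leaving out each array. The fit was tested on simulated data. Tools were R 4.3.3, limma 3.58.1, the package data.table (version 1.17.8), Python 3.11.15, numpy 2.4.6, pandas 2.3.3, scipy 1.17.1 and matplotlib 3.10.9.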

Additional observations from a re-analysis of the deposited data

Results flagged for a closer look

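In 10 of 184 combinations of a member and a group (5.43%), 1 mouse stood apart from the other 5 by Dixon's criterion, where chance marks about 1 in 20. Among fasted mice, replicate 2 was lowest for Hsp90b1 at a log2 level of 6.23 (nearest other 6.53) and for Sel1l at 4.24 (4.45). Fasted replicate 5 was lowest for Txndc5 at 3.26 (3.47), and fasted replicate 6 for Spcs1 at 4.93 (5.01). Among fructose-fed mice, replicate 6 was lowest for Fkbp2 at 5.16 (5.3) and replicate 5 highest for Ssr4 at 6.08 (5.94). Glucose-fed replicate 6 was highest for Herpud1 at 7.01 (6.71). Among water-fed mice, replicate 3 was highest for Pdia5 at 3.83 (3.68) and for Ssr2 at 6.74 (6.21), and replicate 6 for Sec61a1 at 5.96 (5.82).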

How the results depend on the processing

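The count of members that fell with fasting was 39 to 44 over the 15 alternatives and 43 to 44 when 1 array was left out. Of the 44, 37 fell in every alternative that kept them and gave 1 value per gene, and Derl1, Ern1, Fkbp2, Herpud1, P4hb, Ssr4 and Txndc11 missed the threshold in at least 1. With every probe on its own, 1 Dnajb11 probe rose, against the fall of the gene's value. Of the 38 further probes, 7 did not pass, and these were probes of Dnajc10, P4hb, Derl1, Herpud1 and Ern1. For fructose against water, the 6 members that fell became 10 with normexp, 2 with median centring and 2 with no filter. With the mean of all probes 4 fell, without Sel1l and Edem1. With only the arrays compared 0 fell. Within slide 1, 2 or 3 also 0 fell, but 0 of all 23990 genes passed there by limma, so the members' count says nothing. Leaving out 1 array gave 1 to 10. For glucose against water, the members that rose were 0, against 2 with normexp, 1 with quantile normalization, 1 with the stricter filter, 2 with the authors' table, 3 with array weights and 1 with only the arrays compared. Leaving out 1 array gave 0 to 2, with 2 without fasted replicate 2, and 1 each without fasted replicate 3, fructose-fed replicate 1, glucose-fed replicates 4 and 6, and water-fed replicate 3. The genes were Ero1lb, Derl2 and Edem2. Apart from that Dnajb11 probe no member's call changed sign, and the causes were not tested. Replicate numbers were not shown to pair mice: 9 of 36 same-number pairs correlated above 0.1 (mean 0.0335). With the replicate block, 44 members fell with fasting, 2 with fructose (Hspa5 and Hsp90b1) and 0 with glucose. Signal near background limits Fkbp11 and Bhlha15 in fasted mice, whose folds are bounds.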
